A study of Mus musculus with 8 samples.

Results

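The chromatin loops described here start at the promoters of Klf2, Klf4 and Klf5 in mouse embryonic stem cells. A loop was counted for a gene when at least 1 of its anchors lay within 5 kb of an annotated transcription start of that gene, and this rule found 143 of the 415681 loops in the deposited table. Klf2 had 76 of them, Klf4 had 41 and Klf5 had 26. The rule reads positions and no loop value.

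The data came from H3K27ac HiChIP, which ligates neighbouring DNA ends in fixed nuclei and pulls down fragments carrying acetylated lysine 27 of histone H3, a mark of active promoters and enhancers. A read pair therefore reports a contact in which an acetylated site takes part, and a change in acetylation and a change in contact cannot be told apart from the counts. Per the labels, 4 embryonic stem cell lines gave 2 technical replicates each, 8 libraries in all. The B6 line was of strain C57BL/6J, the D2 line of strain DBA/2J. The line called B6-13D2 was of the congenic strain B6.D2-(rs30079041-rs51756099)/Bakr, with the B6 genome outside an interval taken from D2. The line called D2-13B6 was of the reciprocal strain D2.B6-(rs29224292-rs13469455)/Bakr, and the series text names rs51756099 as the end marker of that interval instead. All lines were grown in medium with 15% fetal bovine serum, LIF, 1 µM PD0325901 (a MEK inhibitor) and 3 µM CHIR99021 (a GSK3 inhibitor). Each strain was represented by 1 cell line, so strain and line cannot be told apart. The p-values of the edgeR and DESeq2 fits measure only the spread between libraries of a line, which is technical. The exact tests below take the 8 libraries as units, although these are 2 technical replicates of each of 4 lines.

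Klf2, Klf4 and Klf5 are zinc-finger transcription factors that bind GC-rich motifs and help to keep mouse embryonic stem cells in the naive state. They overlap in function. As background, Klf4 is known as a target of LIF acting through the transcription factor STAT3, Klf2 is sustained when MEK is inhibited, and Klf5 responds to LIF as well. Their enhancers are known to lie outside the gene bodies, so contacts between promoter and distal acetylated sites are the quantity of interest at these genes.

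The files held between 737955 and 1425304 counted read pairs per library. All 8 embryonic stem cell markers looked at (Pou5f1, Sox2, Nanog, Esrrb, Zfp42 and the 3 Klf genes) had promoter contacts that passed the filter, and their summed level ran from 3723 to 4977 CPM (counts scaled by the library total times its TMM factor). Of the markers of other cell types, 2 of 5 for primed epiblast, 1 of 5 for primitive endoderm, 1 of 5 for trophoblast and 2 of 6 for feeder fibroblast passed it. Their summed levels reached at most 128, 12.5, 15.0 and 79.0 CPM. Gata4, Gata6, Sox17, Eomes and Fgf5 were not among the tested genes. Of these markers, the feeder gene Col1a1, a collagen gene, was lower with the exchanged interval from D2, by -0.62 (log2, edgeR FDR = 0.0133). This is the same contrast as for the interval calls below, and 1 of the 2 tested feeder markers was thus called. The other, Col1a2, went the other way, at 0.33 (edgeR FDR = 0.410). The summed feeder level was 45.8 to 55.5 CPM in B6-13D2, 61.8 to 75.5 in D2, 67.4 to 76.0 in B6 and 62.7 to 79.0 in D2-13B6. The part of such cells in the results below was not tested.

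The 3 promoters sat in anchors of different width. The start of Klf2 on the plus strand of chromosome 8 (position 72319033, GRCm38) lay inside a merged anchor of 70 kb at chr8:72300001-72370000. That anchor also held the start of Eps15l1, which encodes an endocytic adaptor, and of the predicted gene Gm10282, so at anchor level their contacts cannot be told apart from those of Klf2. Among 10662 protein-coding genes with at least 100 partner read pairs, its width was at the 98.3rd percentile, against a median of 15.0 kb. Klf4 on the minus strand of chromosome 4 (first start at position 55532466) had an anchor of 15.0 kb at chr4:55525001-55540000. Klf5 on the plus strand of chromosome 14 (start at position 99298691) also had one of 15.0 kb, at chr14:99290001-99305000.

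The promoter sequences of Klf2 and Klf4 are shown because all contacts below were read from these sites. They are the first bases of the RefSeq promoter windows (GRCm38.p6), at most 250, on the strand of transcription. The Klf2 stretch was cut just before the start position given above. Klf5 was not matched in the promoter table, so 2 of the 3 genes are shown. Capitals mark GC boxes (GGGNGGGG on either strand, overlapping matches joined).
Klf2, chr8:72318812-72319032, plus strand: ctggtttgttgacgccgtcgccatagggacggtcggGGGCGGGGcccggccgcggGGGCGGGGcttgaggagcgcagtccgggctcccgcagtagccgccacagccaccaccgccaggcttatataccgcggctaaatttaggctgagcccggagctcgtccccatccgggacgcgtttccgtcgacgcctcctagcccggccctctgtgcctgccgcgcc
Klf4, chr4:55532476-55532725, minus strand: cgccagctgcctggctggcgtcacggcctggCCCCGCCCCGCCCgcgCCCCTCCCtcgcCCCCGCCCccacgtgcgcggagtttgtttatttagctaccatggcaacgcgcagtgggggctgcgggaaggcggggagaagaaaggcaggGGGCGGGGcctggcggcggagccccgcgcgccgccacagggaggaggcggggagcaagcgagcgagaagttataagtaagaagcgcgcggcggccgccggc
The Klf2 stretch of 221 bases held 2 GC boxes and the Klf4 stretch of 250 bases held 5. At least 1 GC box was present in 33.2% of 32851 RefSeq promoters, read over 250 bases before to 50 after the start. Neither stretch held the letters GGGNGTGG, the core of a KLF motif, which 17.6% of those promoters held. The GC content was 71.5% at Klf2 and 74.0% at Klf4.

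Klf2 took part in the most contacts. Over the 8 libraries its loops held 10301 read pairs, those of Klf5 1748 and those of Klf4 833. The widths of the anchors differ, so the levels are compared over 5-kb bins, of which each gene has 3 within 5 kb of a start. On that scale Klf2 had 445 ± 154 read pairs per library (SD, n = 8), Klf5 219 ± 62.3 and Klf4 104 ± 30.1. Percentiles among protein-coding genes were taken at anchor level, where the 70-kb anchor and the pairs inside it add to the total of Klf2. By total read pairs per promoter on that scale, Klf2 was at the 98.8th percentile, Klf5 at the 77.7th and Klf4 at the 59.3rd.

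Much of the contact signal of Klf2 stayed inside its own wide anchor. Contacts within that anchor made up 5257 of the 10301 read pairs, or 51.0%, which was at the 94.4th percentile of genes. In single libraries this share lay between 48.1% and 53.3%. At Klf4 it was 22 of 833 read pairs (2.64%) and at Klf5 50 of 1748 (2.86%), each close to the median gene at 4.26%. Since bins had to start at least 10.0 kb apart to be listed, an anchor of 15.0 kb has room for few such pairs.

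The partners of Klf2 were many and mixed. It contacted 75 partner anchors, at the 92.8th percentile of genes, and the first of them took only 16.3% of its 5044 partner read pairs. Partners that held or lay near a protein-coding start took 57.6% of them (exact 95% interval 56.2% to 59.0%, counting error only, here and for the shares below). Partners with no annotated start took 37.0%.

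Distances of Klf2's partners are given from its start to the partner's centre, since the centre of its wide anchor lies well downstream of the start. Its leading partner was a 10.0-kb anchor 49.0 kb upstream, at chr8:72265001-72275000, which overlapped no annotated gene. Between anchor centres, as loop spans are measured below, the distance was 65.0 kb. Its read pairs with the Klf2 anchor numbered 107 and 53 in the B6 libraries, 63 and 76 in D2, 89 and 127 in B6-13D2, and 144 and 165 in D2-13B6. The 824 in all were 2.46 times the number expected from distance, that is, the mean over all pairs of bins in anchors at the same distances. Of the read pairs that this partner shared with any other anchor, 61.6% (59.0% to 64.2%) went to Klf2, more than to any other of its 55 partners.

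The second partner lay closer, 26.5 kb upstream at chr8:72290001-72295000, also outside annotated genes. It gave 80 and 49 read pairs in B6, 61 and 66 in D2, 49 and 124 in B6-13D2, and 142 and 137 in D2-13B6. The 708 in all were 1.76 times the expectation. Of its outside contacts, 73.7% (70.8% to 76.4%) went to the Klf2 anchor, the highest such share among the named partners. It lies next to that 70-kb anchor, and against distance it was below the first partner, at 1.76 against 2.46 times. Both upstream partners were thus seen in every library, with more raw read pairs in the deeper D2-13B6 libraries.

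The next 3 partners held genes. An anchor 174 kb upstream with the starts of Rab8a, a vesicle-transport GTPase, and Tpm4, a tropomyosin, gave 445 read pairs, between 33 and 83 per library. An anchor 58.5 kb downstream in the body of Eps15l1 gave 380, between 31 and 72 per library, or 0.946 times the expectation. An anchor 236 kb downstream at the start of Med26, a subunit of the Mediator complex, gave 239, between 16 and 51 per library. The longest tested loop of Klf2 spanned 1802.5 kb between anchor centres, to an anchor with the starts of Ell, an elongation factor, Fkbp8 and Kxd1. It had 40 read pairs, 2 to 8 per library, which was 2.80 times the expectation at that distance.

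The leading partners of Klf2 also contacted each other. The upstream anchor at 49.0 kb and the Eps15l1 anchor, on either side of the gene, shared 34 read pairs, 2.79 times the number expected from distance. The Rab8a and Tpm4 anchor and the Med26 anchor shared 78, or 2.08 times. The 2 nearest upstream anchors shared 73, at 1.02 times the expectation. Of the 10 pairs among the first 5 partners, the observed number was between 0.646 and 2.79 times the expected one.

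Klf4 differed from both other genes in direction. By 5-kb bins, 92.2% ± 2.29 of its contacts (SD, n = 8) lay downstream of the start, with a lowest library of 88.9%. The corresponding share was 68.2% ± 3.12 at Klf5 and 54.7% ± 3.58 at Klf2. The ranges over libraries did not overlap between Klf4 and the other genes, whose highest libraries were at 73.7% and 57.8%. Only pairs between anchors are listed, so these shares depend on where anchors lie. The nearest partner anchor of Klf4 was 120 kb away upstream and 20 kb away downstream, between anchor centres. The shares were not set against an expectation. The Klf2 share counted pairs inside its own anchor, which reaches further downstream than upstream of the start. Over contacts that left the anchor, a count added after the data had been seen, it was 28.1% ± 3.36 (SD, n = 8), with 356 read pairs downstream and 912 upstream, so the balance at Klf2 turned to upstream. The shares at Klf4 and Klf5 were the same under both counts. Klf4 had 40 partners, close to the median gene with 42. Partners whose only annotated starts were of non-coding genes took 71.8% of its 811 partner read pairs (68.5% to 74.8%).

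**Figure D1:**
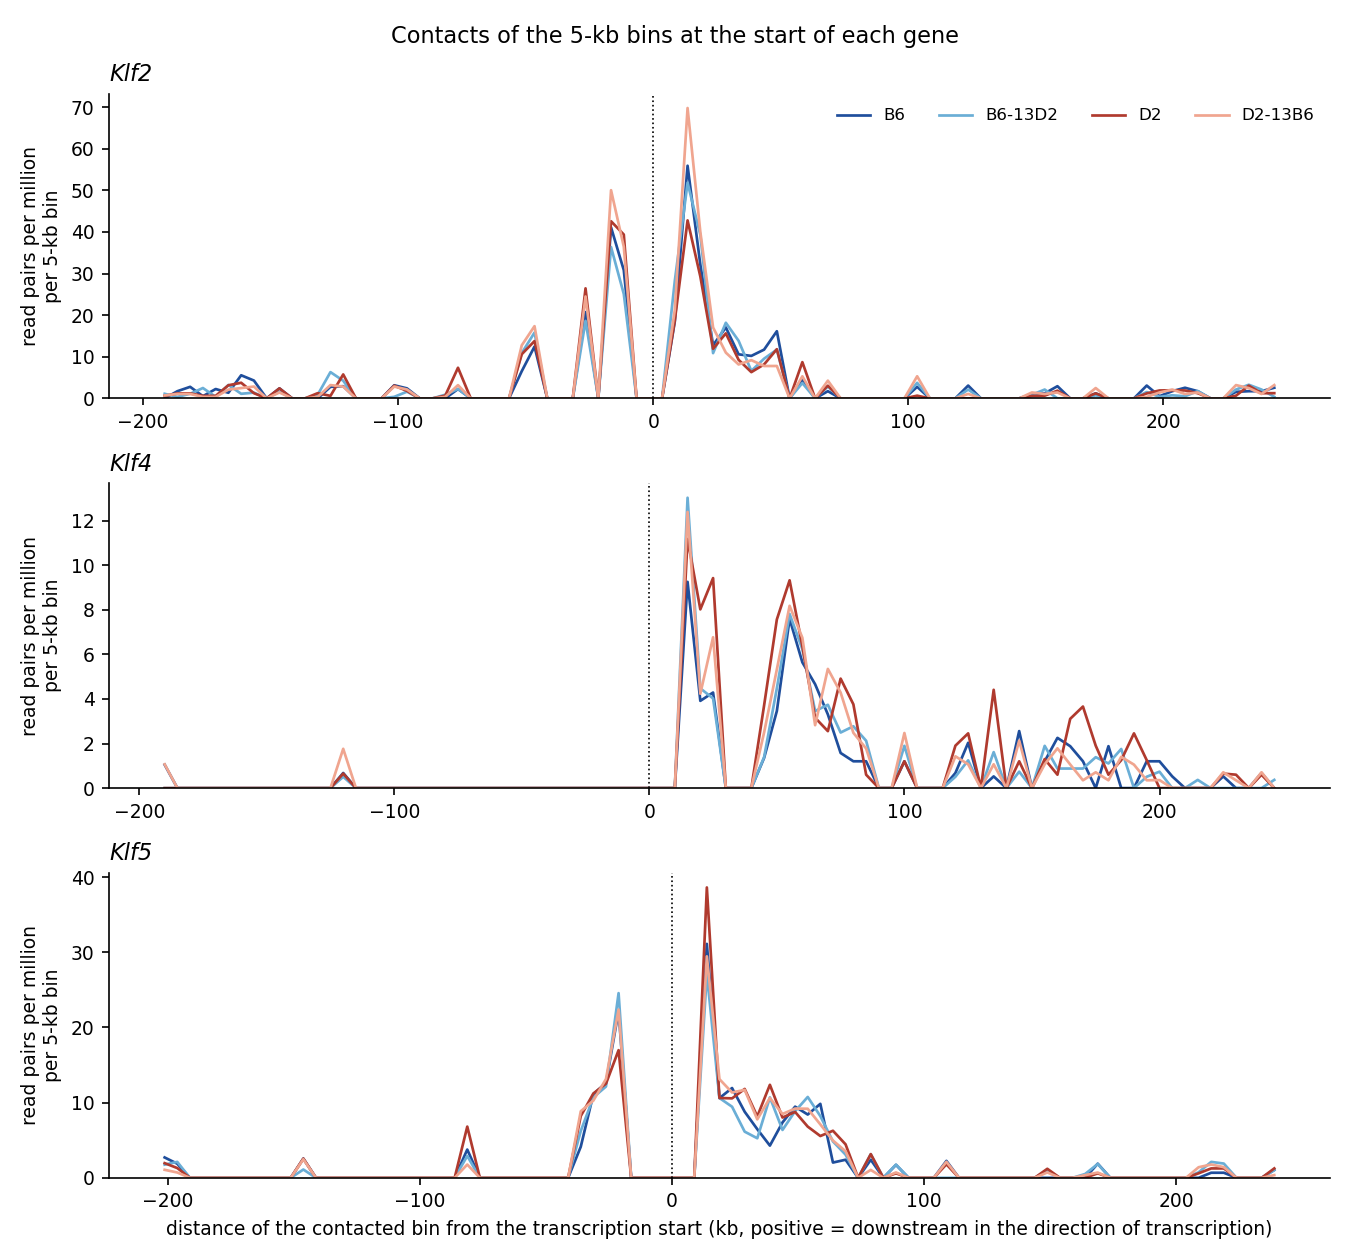
Mean CPM of contacts between the 5-kb bins within 5 kb of a start and each other 5-kb bin (lines, 2 libraries per line), against the distance of that bin from the transcription start in kb, positive in the direction of transcription. Bins with no listed pair are drawn at 0 and pairs of bins starting under 10 kb apart are not in the files. Klf4 contacts lie almost wholly downstream, in a near group and one around 65 kb, while Klf5 has 1 broad downstream block and a near upstream one.

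The first partner of Klf4 was a 45.0-kb anchor 65.0 kb downstream, at chr4:55445001-55490000, which overlapped the non-coding genes Gm12510 and Gm22150. It gave 30 and 21 read pairs in B6, 34 and 33 in D2, 33 and 48 in B6-13D2, and 66 and 45 in D2-13B6. These were 38.2% of all Klf4 partner read pairs, 1.04 times the number expected from distance. Klf4 was not the main contact of that anchor. It took 9.29% (8.32% to 10.3%) of the anchor's outside contacts and ranked 3 among 57 partners. The anchor of Rad23b, which encodes a DNA repair factor, shared 785 read pairs with it, 1.36 times the expectation, against the 310 of Klf4.

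The second partner lay 20 kb downstream, at chr4:55505001-55520000, over the non-coding gene Gm12507. It gave 10 and 18 read pairs in B6, 27 and 19 in D2, 22 and 28 in B6-13D2, and 30 and 36 in D2-13B6. The 190 in all were 0.418 times the number expected at that distance. The anchor further out thus gave more read pairs than the nearer one, in sum and against the expectation, although it is also wider, at 45.0 kb against 15.0 kb. The nearer anchor had 20.3% of its outside contacts with Klf4, which ranked 2 among 42 partners.

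The third partner was the Rad23b anchor at 180 kb, with 92 read pairs, 9 to 16 per library, or 0.830 times the expectation. It was the longest Klf4 loop that passed the filter. An anchor 540 kb downstream with the start of Zfp462, a zinc-finger gene, gave 23 read pairs, and one 122.5 kb downstream with 2 non-coding starts gave 22. Neither passed the filter of at least 5 read pairs in at least 2 libraries. Among the 10 pairs of the first 5 partners, 3 were above the number expected from distance and 7 below it, between 0.470 and 2.21 times. The Zfp462 and Rad23b anchors shared 248 read pairs and the Zfp462 anchor shared 169 with the one 65.0 kb from Klf4, which were 1.81 and 2.21 times the expectation. The third pair above it was the Rad23b anchor with the one at 65.0 kb, given above, while the anchor at 122.5 kb was below it with all 4 others, at 0.470 to 0.919 times.

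Over contacts that left the promoter anchor, Klf5 had the fewest partners and the shortest contacts of the 3 genes. It had 25 partners, at the 11.6th percentile of genes. Only 10.5% of its 1698 partner read pairs spanned 100 kb or more, at the 0.830th percentile, where the median gene had 50.6%. Its first partner took 60.1% of them, at the 95.9th percentile, and the first 2 together took 85.6% ± 3.11 per library (SD, n = 8). Protein-coding starts took 3.12% of them (2.35% to 4.06%), the lowest share of the 3 genes.

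The first partner of Klf5 was a 60.0-kb anchor downstream at chr14:99310001-99370000, centred 42.5 kb away, which began inside the Klf5 gene and reached past its end over 3 non-coding genes. It gave 96 and 92 read pairs in B6, 120 and 92 in D2, 101 and 163 in B6-13D2, and 171 and 186 in D2-13B6. The 1021 in all were 1.17 times the expectation. Klf5 was first among the 34 partners of that anchor, with 28.9% (27.4% to 30.5%) of its outside contacts. A further 4137 read pairs stayed within the anchor.

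The second partner of Klf5 lay 27.5 kb upstream at chr14:99260001-99280000, in no annotated gene. It gave 45 and 39 read pairs in B6, 37 and 41 in D2, 54 and 71 in B6-13D2, and 83 and 71 in D2-13B6, 441 in all against 368 expected from distance. The 2 flanking anchors contacted each other across the gene with 789 read pairs, 1.56 times the expectation and more than the upstream anchor had with Klf5 itself. The next partners were an anchor 215 kb downstream with 31 read pairs, one 80.0 kb upstream in the body of Pibf1, a centriolar protein gene, with 28, and one 197.5 kb upstream at the starts of Pibf1 and of Dis3, a nuclease of the RNA exosome, with 26. The anchor at 215 kb shared 292 read pairs with the first partner of Klf5, 2.29 times the expectation. Of the 10 pairs among the first 5 partners of Klf5, 8 were above the expectation and 2 below it, from 0.560 times.

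The letters TTCCNGGAA, the core of a STAT motif, were searched on both strands in the leading partners because LIF was in the medium. They occurred in 13.5% of the 54464 bins that made up all anchors. Among the 2 leading partners of each gene, they were found in 1 of 3 bins at Klf2 (0 of 2 in the first partner and 1 of 1 in the second), in 3 of 9 and 0 of 3 bins at Klf4, and in 2 of 12 and 1 of 4 bins at Klf5. Of the 7 matches, the one in the bin with the most contacts to each promoter is shown in capitals with 20 bases on each side, from the plus strand of GRCm38. These windows were chosen after the sequences had been seen, in place of longer ones. None lay in an annotated exon.
Klf2, chr8:72291469-72291517: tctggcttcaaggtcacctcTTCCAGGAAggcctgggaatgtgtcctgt
Klf4, chr4:55474111-55474159: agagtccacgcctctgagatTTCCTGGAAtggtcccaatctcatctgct
Klf5, chr14:99354905-99354953: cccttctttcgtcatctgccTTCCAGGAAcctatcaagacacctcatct
The bin around the Klf2 match, 27.5 kb upstream of the start, held 193 read pairs with the Klf2 start bins, 2.01 times the expectation. The one around the Klf4 match, 58.3 kb downstream, held 53, or 1.53 times. The one around the Klf5 match, 56.2 kb downstream, held 76, or 2.01 times. Since the matches were picked by contact number, these ratios describe the picked bins only. The bins of the 4 matches not shown were at 0.550 and 1.05 times the expectation at Klf4 and at 1.23 and 0.949 times at Klf5. The same window at Klf2 also holds the letters TCAAGGTCA, an ESRRB motif, which 14.9% of anchor bins held. Of the bins of the first and the second partner, ESRRB letters were in 1 of 2 and 1 of 1 at Klf2, in 3 of 9 and 0 of 3 at Klf4, and in 3 of 12 and 3 of 4 at Klf5. A pair of further motifs was searched in the same way. The octamer letters ATGCAAAT, in 27.2% of anchor bins, were in 2 of 2 and 0 of 1 bins at Klf2, in 2 of 9 and 1 of 3 at Klf4, and in 4 of 12 and 1 of 4 at Klf5. The KLF letters GGGNGTGG, in 76.8% of anchor bins, were in 2 of 2 and 1 of 1, in 6 of 9 and 2 of 3, and in 10 of 12 and 3 of 4 bins of the same genes. A match describes the sequence and shows no binding.

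The span of contacts was compared between the genes within each library, as the median distance between anchor centres weighted by read pairs. Over contacts that left the promoter anchor, it was 121 ± 16.8 kb at Klf2 (SD, n = 8), 65.0 kb at Klf4 and 42.5 kb at Klf5, the latter 2 alike in all 8 libraries because 1 partner held the median. Klf2 exceeded Klf4 by 55.6 ± 16.8 kb and Klf5 by 78.1 ± 16.8 kb, and Klf4 exceeded Klf5 by 22.5 kb, each in 8 of 8 libraries (exact sign-flip test, two-sided, p = 0.00781, the smallest that 8 libraries allow). The median gene was at 100 kb, which put Klf2 at percentile 56.5, Klf4 at percentile 30.9 and Klf5 at percentile 17.2. Taking 1 mean per line leaves 4 values and a smallest possible p of 0.125, at which none of the 3 differences passes.

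The place of Klf2 in this order depended on its wide anchor. When the promoter side was taken as the same number of 5-kb bins for each gene and every listed contact was counted, the median span at Klf2 was 23.8 ± 2.31 kb (SD, n = 8), against 31.3 ± 2.31 kb at Klf5 and 68.8 ± 4.43 kb at Klf4. Klf2 was then below Klf4 by a mean difference of -45.0 kb and below Klf5 by -7.50 kb, in 8 of 8 libraries each (exact sign-flip test, p = 0.00781, over technical replicates). Over the same bins, but only for contacts that left the merged anchor, Klf2 was again the longest at 131 ± 21.9 kb. Klf4 spanned further than Klf5 under every definition. These bin-based values were added after the data had been seen.

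**Figure D2:**
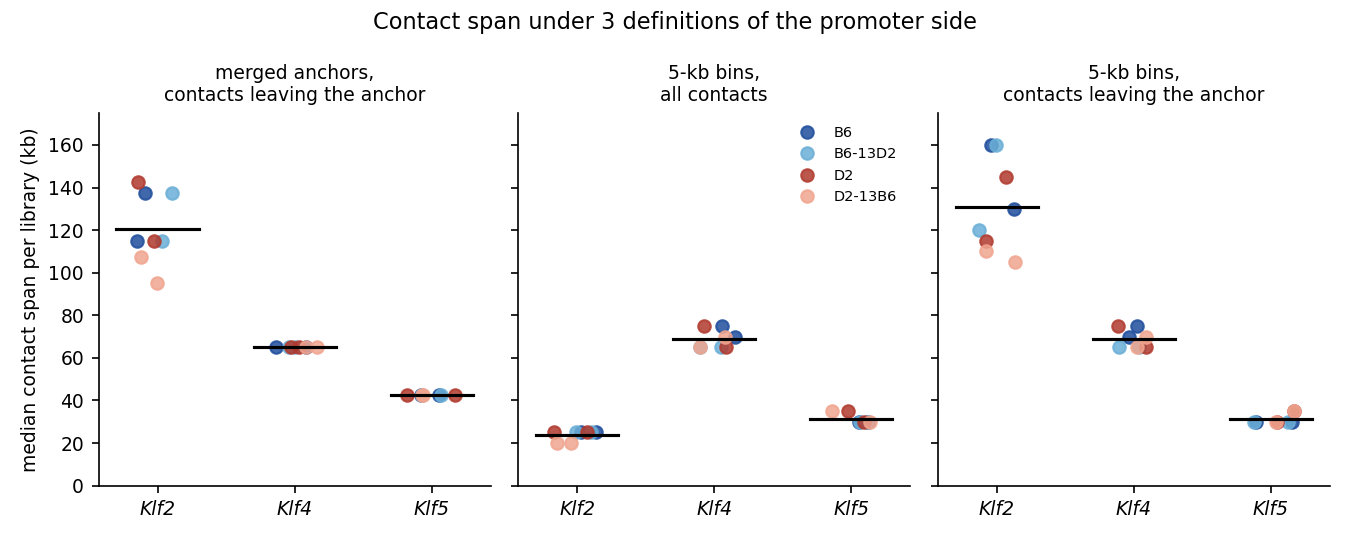
Median contact span per library in kb (points, coloured by line; black bars, mean of 8 libraries) for each gene under 3 definitions of the promoter side. Klf2 is longest at 121 and 131 kb where contacts must leave the merged anchor, and shortest at 23.8 kb where all contacts of the 5-kb bins count.

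The number of partners was compared at equal read pairs, since more read pairs find more partners. With Klf2 thinned to the number that Klf4 had in the same library, Klf2 had 27.3 ± 3.36 partners (SD, n = 8) and Klf4 18.9 ± 3.36, a difference of 8.43 ± 2.34. With Klf5 thinned in the same way, it had 11.0 ± 1.83 partners against 18.9 of Klf4, a difference of 7.87 ± 2.65. Klf2 thinned to the read pairs of Klf5 had 37.0 ± 3.85 partners against 15.4 ± 2.56. All 3 differences had the same sign in 8 of 8 libraries (exact sign-flip test, two-sided, p = 0.00781, adjusted p = 0.00781 over 6 comparisons of span and number). The 8 libraries are technical replicates of 4 lines, and with 1 mean per line none of the 3 differences passes, at p = 0.125, the smallest that an exact sign-flip test of 4 values allows.

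The partner numbers also moved with the unit counted. By 5-kb bins with every contact counted, Klf2 had 5.61 fewer partner bins than Klf4, written as -5.61 in the difference Klf2 minus Klf4, and with contacts that left the anchor it had 6.59 more. The difference of Klf4 over Klf5 turned to -1.14 when only loops that had passed the filter were counted, since 3 partners of Klf4 and 5 of Klf5 remained. As deposited, 14 of the 41 loops of Klf4 rested on a single read pair over all libraries, against 2 of 76 at Klf2 and 4 of 26 at Klf5.

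Differences between the lines were tested with edgeR on the 44706 loops with at least 5 read pairs in at least 2 libraries. This filter kept 36 of the 143 loops, 26 of Klf2, 4 of Klf4 and 6 of Klf5, which held 91.9%, 73.0% and 91.1% of the partner read pairs of their genes. The averaged background effect compares D2 and D2-13B6 with B6 and B6-13D2, and the averaged interval effect compares D2 and B6-13D2 with B6 and D2-13B6. The interaction asks whether the interval effect differs between backgrounds.

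None of the 36 loops passed an edgeR FDR of 0.05 in any of the 6 contrasts, which at these counts does not show that they were alike between the lines. The background effect called 8.85% of all tested loops, the interval effect 0.986%, the interaction 0.606%, D2 against B6 2.65%, B6-13D2 against B6 0.859%, and D2 against D2-13B6 0.922%. At an unadjusted p under 0.05 there were 5, 1, 0, 2, 1 and 4 of the 36 loops, in the same order, where the shares of all tested loops were 20.7%, 10.6%, 8.95%, 13.2%, 9.90% and 9.73%. DESeq2 called 0 as well, but it gave an adjusted p to 20, 4, 4, 19, 4 and 4 of the 36 loops, so its count says nothing of the others. Leaving out B6-13D2 replicate 2 gave 1 called loop for the background effect. The median log2 fold change of the 36 loops was 0.16 for the background effect, against 0.02 over all tested loops, and 0.02 for the interval effect, against -0.0058.

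Single loops had wide errors. The leading upstream loop of Klf2 differed by 0.09 (log2, SE 0.13) between backgrounds, and the second one by 0.27 (SE 0.13, edgeR FDR = 0.226). The loop from Klf4 to the anchor at 65.0 kb differed by 0.35 (SE 0.19, edgeR FDR = 0.269) and that to the anchor at 20 kb by 0.48 (SE 0.23, edgeR FDR = 0.207). All 4 tested loops of Klf4 had positive values. The main downstream loop of Klf5 differed by 0.23 (SE 0.12, edgeR FDR = 0.242) and the upstream one by 0.02 (SE 0.16). The smallest FDR among the 36 loops was 0.151, for contacts within the Klf5 anchor.

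**Figure D3:**
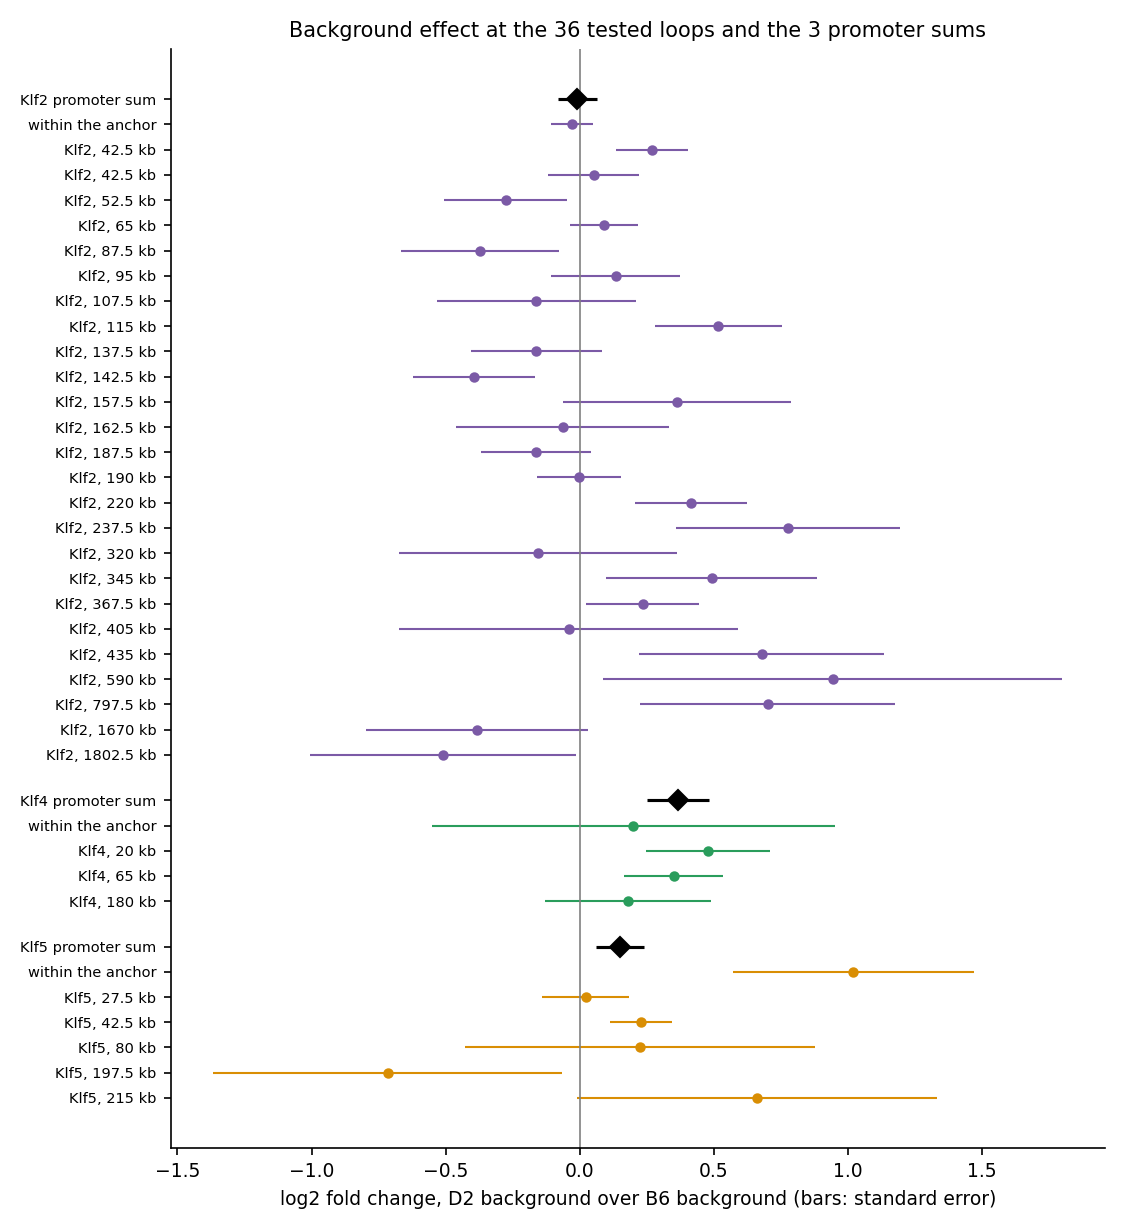
Averaged background effect as log2 fold change, D2 background over B6 background, with its standard error, for the 36 tested loops by span (coloured points) and for the 3 promoter sums (black diamonds). The Klf4 sum lies at 0.37 and its 4 loops between 0.18 and 0.48, while the 26 loops of Klf2 lie on both sides of 0.

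Summed over all loops of a promoter, Klf4 had more contacts in the D2 background. Its promoter contact sum, in CPM after TMM scaling, was 72.9 and 97.8 in B6, 88.6 and 89.3 in B6-13D2, 124 and 112 in D2, and 109 and 102 in D2-13B6. The 4 libraries of the D2 background were all above the 4 of the B6 background. The log2 fold change was 0.37 (SE 0.12, edgeR FDR = 0.0146), from 87.2 ± 10.4 to 112 ± 8.95 CPM (SD, n = 4 each). Of the 11627 gene sums tested, 24.2% were called for the same contrast, so a call at this threshold is common. In bulk libraries, more cells with a contact and more contact per cell cannot be told apart. The call did not hold with DESeq2 (log2 fold change 0.35, FDR = 0.134), without B6 replicate 1 (0.24, edgeR FDR = 0.196), without D2 replicate 1 (0.31, edgeR FDR = 0.108) or without D2-13B6 replicate 1 (0.34, edgeR FDR = 0.0627). It held in the other 14 alternatives run, at FDR values up to 0.0325.

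Klf2 and Klf5 did not pass in that contrast. The Klf2 sum was 1318 and 1050 CPM in B6, 1106 and 1350 in B6-13D2, 1145 and 1103 in D2, and 1191 and 1375 in D2-13B6, so the backgrounds overlapped widely. Its log2 fold change was -0.0098 (SE 0.07, edgeR FDR = 0.947). The Klf5 sum was 169 and 218 in B6, 202 and 200 in B6-13D2, 224 and 205 in D2, and 218 and 223 in D2-13B6. Its log2 fold change was 0.15 (SE 0.09, edgeR FDR = 0.237). With 1 scaling factor per library and chromosome, the Klf5 value was 0.25 and passed (edgeR FDR = 0.0299).

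**Figure D4:**
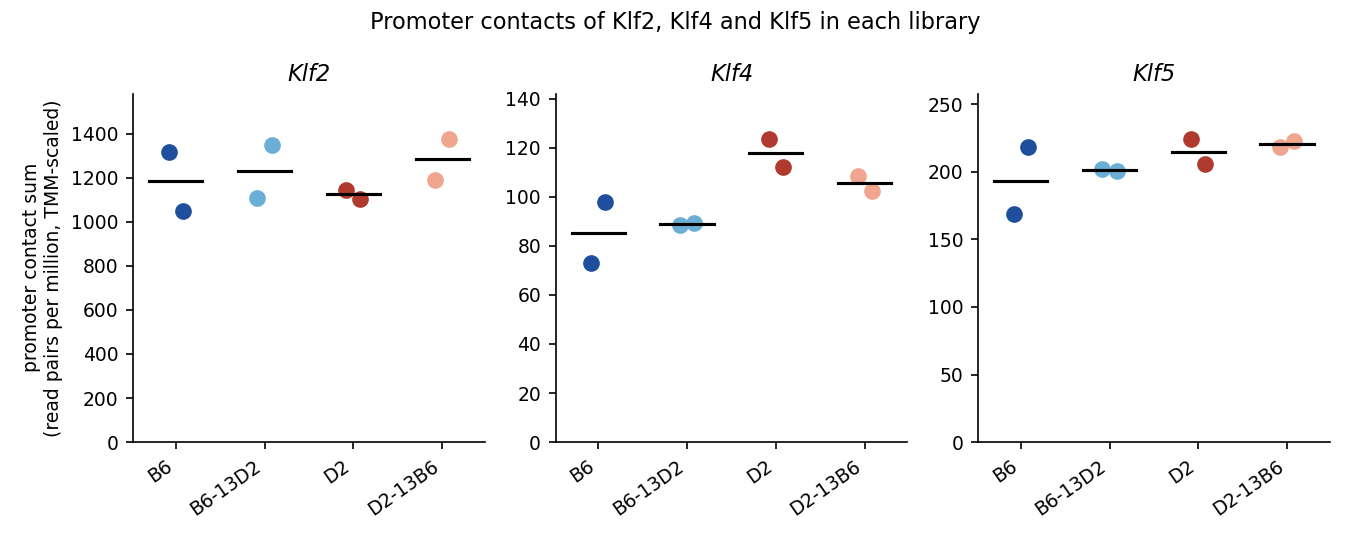
Promoter contact sum of each gene in each library, in TMM-scaled CPM (points; bars, mean of the 2 libraries of a line; each axis starts at 0 and has its own range). At Klf4 the D2 and D2-13B6 libraries, at 102 to 124, lie above the B6 and B6-13D2 libraries, at 72.9 to 97.8, and at Klf2 and Klf5 the backgrounds overlap.

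The exchanged interval made no difference that passed at any of the 3 sums. The averaged interval effect was -0.07 at Klf2 (SE 0.07, edgeR FDR = 0.637), 0.12 at Klf4 (SE 0.12, edgeR FDR = 0.589) and 0.02 at Klf5 (SE 0.09, edgeR FDR = 0.934), where 8.77% of all gene sums were called. The interaction was -0.24 at Klf2 (edgeR FDR = 0.365), 0.08 at Klf4 (edgeR FDR = 0.897) and -0.10 at Klf5 (edgeR FDR = 0.813), where 6.92% were called.

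In the 3 pairwise contrasts, none of the 3 sums passed. Klf4 came closest in D2 against B6, at 0.49 (SE 0.17, edgeR FDR = 0.0615), where 10.3% of gene sums were called, while B6-13D2 against B6 called 5.7% and D2 against D2-13B6 called 8.95%. The other 8 values had edgeR FDR values of 0.285 to 0.914.

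Whether the genes differed from each other in their background effect was tested on the log2 ratio of their sums within a library. Klf4 over Klf5 was -0.97 ± 0.12 in the D2 background (SD, n = 4) and -1.18 ± 0.02 in the B6 background (SD, n = 4), which differ by 0.22 (exact permutation test, two-sided, p = 0.0286, the smallest that 4 against 4 allows, adjusted p = 0.171 over 6 ratios). Klf2 over Klf4 differed by -0.36 (exact permutation test, p = 0.143, adjusted p = 0.429) and Klf2 over Klf5 by -0.15 (exact permutation test, p = 0.429, adjusted p = 0.549). A single difference could not have passed after adjustment whatever its size, since 0.171 is what the smallest p becomes over 6 ratios, and the 4 libraries of a background are technical replicates of 2 lines. Whether the background effect at Klf4 differs from that of the other genes is thus not settled by these values.

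Contacts within the leading partner anchors were tested in the same fit, for the 10 such anchors among the named ones that passed the filter. Of these, 3 were called for the background effect, 1 for D2 against D2-13B6, 1 for the interaction and 0 in the other 3 contrasts, where 8.85%, 0.922% and 0.606% of all tested loops were called for the first 3. With 10 anchors, nothing particular to them is read from these counts. Within the anchor 65.0 kb from Klf4, D2 had fewer read pairs than D2-13B6, with 245 against 369 CPM and a log2 fold change of -0.59 (edgeR FDR = 0.00320), and the interaction was -0.76 (edgeR FDR = 0.0213). Within the Rab8a and Tpm4 anchor of Klf2, the D2 background was lower by -0.39 (edgeR FDR = 0.00124). Within the Zfp462 anchor it was higher by 0.34 (edgeR FDR = 0.00445), and within the anchor 215 kb downstream of Klf5 by 1.25 (edgeR FDR = 0.0297). Contacts within the 60.0-kb anchor next to Klf5 differed by -0.08 and did not pass. The loop from the Zfp462 anchor to Klf4 had not passed the filter and was not tested. The loops from the other anchors to the Klf promoters were tested and not called.

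Other members of the Klf family were described by the same promoter sums. Of 14 listed genes, 10 could be tested, and 3 rose and 1 fell in the D2 background, at a median log2 fold change of 0.21 against 0.02 over all gene sums. Klf12, a neighbour of Klf5 on chromosome 14, had 11.5 and 29.1 CPM in B6, 21.4 and 18 in B6-13D2, 91.5 and 83.2 in D2, and 75.1 and 81.9 in D2-13B6. Its log2 fold change was 2.09 (SE 0.18, edgeR FDR = 9.57e-15), with no overlap between the backgrounds. Klf5 and Klf12 shared a loop of 987.5 kb with 5 read pairs in all. Klf9 rose by 0.38 (edgeR FDR = 9.59e-05), Klf6 by 0.28 (edgeR FDR = 0.0144) and Klf8 fell by 0.57. Klf6 also rose with the D2 interval, by 0.34 (edgeR FDR = 0.0086), but not when each chromosome had its own scaling factor.

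Genes of the naive pluripotency network, among which the 3 Klf genes act, went in both directions. Of 14 tested, Sox2, Esrrb and Tbx3 rose and Nr5a2 and Sall4 fell in the D2 background. Sox2 rose by 0.45 (SE 0.08, edgeR FDR = 9.53e-06), from 272 to 344 CPM in the B6 background libraries to 371 to 469 in the D2 ones. Nanog and Pou5f1 differed by 0.14 and -0.06 and did not pass. The median was 0.07. Sall4 was low in D2 alone, at 476 and 465 CPM. It was at 619 and 613 in D2-13B6, 739 and 542 in B6, and 578 and 617 in B6-13D2. Nr5a2 and Sall4 each lost their call under 1 of the 3 other scalings, which were added for these gene lists after the data had been seen. Sall4 was also lower with the D2 interval, by -0.25 (edgeR FDR = 0.0336), in a contrast that called 8.77% of all gene sums. It was the 1 interval call among these 14 genes, and with 1 scaling factor per chromosome Tfcp2l1 was called lower as well.

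Genes that carry the LIF signal were next. Of 6 listed, 5 were tested, 1 rose and 1 fell in the D2 background. In this averaged effect, Socs3, a feedback inhibitor of the pathway and a STAT3 target, rose by 0.35 (edgeR FDR = 0.00365). Pim1, a kinase gene that STAT3 induces, fell by 0.25 (edgeR FDR = 0.0078). Socs3 stood apart in D2-13B6 alone, at 283 and 313 CPM. It was at 180 and 170 in D2, 227 and 159 in B6, and 157 and 170 in B6-13D2. The averaged Socs3 values, here and for the interval below, thus rest on that line. In D2 against B6, 0 genes of this list were called. Stat3 itself differed by 0.24 (edgeR FDR = 0.0750). With the D2 interval, Socs3 was lower by -0.51 (edgeR FDR = 0.000169) and Lifr, a LIF receptor subunit gene, higher by 0.27 (edgeR FDR = 0.0312). That contrast called 8.77% of all gene sums. In it Col1a1 was also lower, while Col1a2 was at 0.33 and not called. Both Socs3 calls were lost with 1 scaling factor per chromosome, which also moved the list's median for the background effect from 0.24 to -0.03. Under that scaling Stat3 was called higher with the D2 interval, next to Lifr. Among 6 ERK targets, Etv4 rose by 0.55 (edgeR FDR = 1.45e-05), Etv5 by 0.19 (edgeR FDR = 0.0398, lost with RLE factors) and Spry2, an ERK inhibitor, fell by 0.66 in the D2 background. Spry2 was at 40.1 and 46.4 CPM in D2-13B6, 70.9 and 60.5 in D2, 64.6 and 93.8 in B6, and 85.4 and 96.8 in B6-13D2. D2 and B6 thus overlapped, and the lowest line, D2-13B6, enters both averaged effects. Spry2 was higher with the D2 interval, by 0.42 (edgeR FDR = 0.0426), but not when each chromosome had its own scaling factor. Under that scaling Etv4 was called higher instead. The background counts of these lists are to be read against the 24.2% of all gene sums called.

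The genes on other chromosomes whose sums followed each Klf gene most closely over the 8 libraries were picked by Pearson's correlation among 6167 to 6371 genes with at least 50 CPM. For Klf2 they were Sik1 (r = 0.988) and Gys1 and Ruvbl2 (r = 0.943 for both, which share an anchor). For Klf4 they were Prex2 (r = 0.966), Tigar (r = 0.963) and Srcap (r = 0.950), and for Klf5 they were a, the agouti gene (r = 0.946), and Ptpn22 and Bcl2l15 (r = 0.934 for both). These values are the highest of many over 8 points that share lines and depth, and describe likeness only.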

How the data were processed

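As deposited, the values were raw counts: read pairs per loop in 1 table of the series, and read pairs per pair of 5-kb bins in 1 file per library. The submitters' processing notes name BWA 0.7.18, SAMtools 1.19.2, edgeR 3.34.1 and mm10 without roles. The loop caller was not given in the sources used here. Transcription starts came from GENCODE M21 (GRCm38).

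A promoter contact sum adds all loops with an anchor within 5 kb of a start, each loop once. Loops needed 5 counts and gene sums 10 counts in at least 2 libraries. Tests used edgeR 4.0.16 in R 4.3.3 (quasi-likelihood, TMM factors, 1 mean per line, all 8 libraries, Benjamini-Hochberg over all features of the table), with DESeq2 as an alternative, and were tested on simulated data. Gene sums used the library totals as library sizes. Span and partner number were compared within libraries. Named partners are the 5 with the most read pairs per gene and the longest tested loop. Members, lists and tests were chosen with earlier results of these data known. Replicate numbers did not pair the libraries: same-numbered libraries of different lines deviated with correlations of -0.0443 to 0.0067 over 44706 loops.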

Additional observations from a re-analysis of the deposited data

Results flagged for a closer look

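In groups of 4 libraries that share a background or an interval allele, 60 sets of values were screened for 1 library far from the other 3. Chance marks about 1 in 20 of such sets. The median spans of Klf4 and Klf5 were alike in all libraries and could not be checked. The groups overlap, so the sets are not independent. There were 4 marked values. The partner contacts of Klf2 (loops that leave its anchor) were at 671 CPM in D2-13B6 replicate 2, against 571 to 586 in the other 3 libraries of the D2 background. The Klf5 promoter contact sum was at 169 CPM in B6 replicate 1, against 218 to 223 in the other 3 libraries with the B6 interval. The partner contacts of Klf5 in the same library were at 166, against 202 to 209 in the other libraries of the B6 background and 209 to 213 in the others with the B6 interval. That library also had the lowest Klf4 sum, at 72.9.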

How the results depend on the processing

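Of 419 comparisons of a result with an alternative, 387 kept direction and side of the threshold. Klf4 in the D2 background lost its call with DESeq2 (0.35) and ranged from 0.24 to 0.45 without 1 replicate, and Klf5 passed at 0.25 with 1 TMM factor per chromosome, from 0.034 to 0.23 without 1 replicate. Uncalled sums changed sign: Klf2 between backgrounds was 0.013 with library totals alone, 0.00068 with a factor per chromosome, 0.027 over loops leaving the promoter window and -0.10 to 0.067 without 1 replicate. With a factor per chromosome the Klf4 interaction was -0.0030 and the Klf5 interval effect -0.041, and with library totals the Klf5 interaction was 0.061. Without 1 replicate these were -0.11 to 0.33, -0.068 to 0.12 and -0.27 to 0.11, the Klf2 interval effect -0.15 to 0.028 and the Klf2 over Klf5 interval ratio -0.19 to 0.047. Called loops numbered 0 to 1 for the background effect. Line means gave the same span differences (55.6, 78.1, 22.5 kb) and number differences (8.43, 21.6, 7.87) at p = 0.125, the smallest an exact sign-flip test of 4 lines allows. Spans by 5-kb bins (added after seeing the data) were -45.0 and -7.50 kb for Klf2 minus Klf4 and minus Klf5, and the partner number -5.61 for Klf2 minus Klf4, because contacts inside the anchor then counted. Klf4 minus Klf5 was -1.14 over filtered loops, where fewer partners remained. The replicate block changed no call and gave 0.37 for Klf4. DESeq2 called 1520 gene sums for the background effect against 2812 by edgeR, and 1244 against 3955 loops, with an adjusted p for 9147 sums and 20437 loops. Library totals alone moved the median interaction of all gene sums from 0.02 to 0.19. Where no cause is named, the cause was not tested. Depth limits single loops: 107 of the 143 had too few read pairs for the test.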
